A study of Mus musculus with 12 samples.

Results

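The mitochondrial genome carries a small set of protein-coding genes, all of which specify subunits of the respiratory chain or of ATP synthase, and 10 of them were followed here through the adult mouse hippocampus. They were taken by symbol as mt-Nd1, mt-Nd2, mt-Nd4, mt-Nd5 and mt-Nd6 (complex I), mt-Cytb (complex III), mt-Co1, mt-Co2 and mt-Co3 (complex IV) and mt-Atp6 (complex V), with 1 transcript each, out of 115270 transcripts in the expression table. All 13 mitochondrial protein-coding transcripts of the annotation were present in the table, and mt-Nd3, mt-Nd4l and mt-Atp8 were the 3 outside the set. The rule that selects them is by name and uses no difference between groups.

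Hippocampal RNA of 12 male C57BL/6 mice (C57BL/6J in the study's methods) at postnatal day 70 was sequenced, 3 mice per group. Control mice had dams given water only and were left with the dam. Ethanol mice had dams that drank 10% ethanol in water by choice throughout gestation, so that the dose of a dam was her own. The ethanol had been on offer before mating, was withheld during mating, and was then returned until postnatal day 10. That period takes in part of the days of isolation. Stress mice had dams given water and were isolated from dam and littermates for 3 h daily from postnatal day 2 to 14. Ethanol + stress mice had both exposures. Pups for isolation were drawn from within litters, and the labels do not tie mice to litters, so p-values measure the spread between these animals only. RNA was total RNA from whole dissected hippocampus, depleted of rRNA and made into stranded libraries, and all 8 marker genes of hippocampal neurons were present in all libraries.

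Complexes I, III and IV pass electrons from NADH to oxygen while pumping protons, and complex V uses the proton gradient to make ATP, which neurons consume heavily for ion pumping and synaptic transmission. The genes are read from opposite strands of a circular genome as long polycistronic transcripts, most of them from the heavy-strand promoter, and are cut apart at the tRNAs between them. Levels of the separate mRNAs therefore depend on stability after cutting as well as on transcription. Cells hold many copies of this genome, and the nuclear genome contains old insertions of it, some of which are annotated as pseudogenes.

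In GRCm38 all 10 genes are single-exon and protein-coding on the mitochondrial chromosome, and 9 of them are listed on the plus strand. mt-Nd6, a membrane subunit of complex I, is the exception on the minus strand at chrM:13552-14070, and 28.1% of its bases are G compared with 8.0% to 16.1% in the other members. Its end overlaps that of mt-Nd5, another membrane subunit of complex I, by 14 bases on the opposite strand. The overlap is shown because it is where members on opposite strands share bases, and its 14 bases are fewer than the 31-base words by which sequences are compared below. Whether the authors' assignment used strand is not given in the sources used here. In the window chrM:13544-13573, plus strand, capitals mark the bases that belong to both genes.
mt-Nd5/mt-Nd6: atactcaaTTAATCTCGAGTAAtctcgata

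The last bases of 4 members are shown because some of these genes end before a full stop codon. Capitals mark the stop codon, or the lone T left after the last full codon, which is known to be completed by the poly(A) tail. All are on the plus strand of chrM, at 11527-11544 for mt-Nd4, 9373-9390 for mt-Co3, 15271-15288 for mt-Cytb and 8590-8607 for mt-Atp6.
mt-Nd4: ttacaggcctgacaataT
mt-Co3: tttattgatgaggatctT
mt-Cytb: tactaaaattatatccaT
mt-Atp6: ctacatgataatacaTAA
The final A of mt-Atp6 is also the first base of mt-Co3, so that these neighbours share 1 base.

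A further feature of sequence concerns some of the members. Of the 10 members, 5 have a near identical copy in the nuclear genome, here a transcript that shares at least 95% of its 31-base words with the member. All 5 copies are annotated as unprocessed pseudogenes and lie side by side on the minus strand of chromosome 1 (GRCm38). Gm28661 at chr1:24614885-24615565 matched mt-Co2 over 681 of its 684 bases, Gm10925 at chr1:24613974-24614651 matched mt-Atp6 over 678 of 681, and Gm28437 at chr1:24613189-24613971 matched mt-Co3 over 783 of 784, each with 0 differences. Gm28439 at chr1:24611535-24612410 matched the first 876 of the 1378 bases of mt-Nd4 with 0 differences. Gm29216 at chr1:24615706-24616197 matched bases 1054 to 1545 of mt-Co1 with 6 substitutions. The first 60 bases of 2 pairs are shown because a read from such a stretch fits both members of the pair equally. Capitals mark the start codon. The windows are chrM:7013-7072 (plus strand) and chr1:24615506-24615565 (minus strand) for the first pair, and chrM:7927-7986 (plus) and chr1:24614592-24614651 (minus) for the second.
mt-Co2: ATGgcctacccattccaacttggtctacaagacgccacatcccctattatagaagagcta
Gm28661: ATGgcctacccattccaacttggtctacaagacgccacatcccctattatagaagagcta
mt-Atp6: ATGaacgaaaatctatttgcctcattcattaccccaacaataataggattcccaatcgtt
Gm10925: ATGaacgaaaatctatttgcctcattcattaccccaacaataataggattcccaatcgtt

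The only bases by which the mt-Co1 copy could be recognised lie at its very start. Capitals mark the substitutions T1056A, C1057T, A1059G, A1060G, C1062A and A1066T, with the base of mt-Co1 first, the position counted from 1 at its 5′ end, and the base of Gm29216 last. The windows are chrM:6381-6405 (plus strand) and chr1:24616173-24616197 (minus strand).
mt-Co1: ggTCtAAcCggaAttgttttatcca
Gm29216: ggATtGGcAggaTttgttttatcca

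Values are TPM, a measure of abundance per transcript corrected for its length and the size of the library, which the authors estimated with kallisto and scaled again between libraries. They summed to between 889222 and 1173650 per library. TPM hold no depth of their own, but low values lie near multiples of a step worth 1 read pair. Depths from 12040000 to 14910000 read pairs were recovered from that step, with 79.8% to 83.0% of low values within 0.1 of a whole number. A member was worth between 952 read pairs, for mt-Nd6 in its lowest library, and 291000 read pairs, for mt-Co1 in its highest, and such intervals of depth cover counting error only.

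All 10 genes were among the most abundant transcripts of the hippocampus. Their ranks among all transcripts of a library ran from 3 to 309, and together they held between 3.79% and 6.03% of the summed TPM of a library. mt-Co1, the catalytic core of complex IV, was the highest member with a median of 18500 TPM over the 12 libraries (15257 to 27268). mt-Co3, another core subunit of complex IV, followed with a median of 9421 TPM (8355 to 15264). mt-Atp6, the proton channel subunit of ATP synthase, had a median of 5113 TPM (3326 to 8553). mt-Nd1, a membrane subunit of complex I near its quinone site, had a median of 4014 TPM (3473 to 6250). mt-Co2, which takes electrons from cytochrome c, had a median of 2715 TPM (1795 to 3895), and mt-Cytb, the core of complex III, one of 2262 TPM (1883 to 3590). The remaining complex I subunits of the set were lower, with medians of 1063 TPM for mt-Nd4, 764 for mt-Nd2, 452 for mt-Nd6 and 450.1 for mt-Nd5. Outside the set, and so outside the shares of the members below, mt-Nd3 of complex I had a median of 11398 TPM (9106 to 16692). mt-Atp8 of complex V had one of 6552 TPM and mt-Nd4l of complex I one of 535 TPM.

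This order held closely from mouse to mouse. Within a library, mt-Co1 was above mt-Co3, mt-Co3 above mt-Atp6, mt-Nd1 above mt-Co2, mt-Cytb above mt-Nd4, mt-Nd4 above mt-Nd2 and mt-Nd2 above mt-Nd6 in 12 of 12 libraries. Neighbours that did not differ beyond their spread were mt-Nd6 and mt-Nd5 (mt-Nd6 higher in 9 of 12 libraries, with a ratio of 0.928 to 1.22), mt-Co2 and mt-Cytb (mt-Co2 higher in 8 of 12) and, by a single library, mt-Atp6 and mt-Nd1 (11 of 12). Of the 9 pairs of neighbours, the ranges over the 12 libraries lay fully apart for mt-Cytb and mt-Nd4 alone. The ratio of mt-Co1 to mt-Nd5 ranged from 34.2 to 50.8, with a median of 47.2. The 3 complex IV genes made up 66.8% to 71.7% of the summed TPM of the members, and the 5 complex I genes 14.3% to 15.9%. mt-Atp6, the 1 member of complex V, made up 8.04% to 12.6%.

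**Figure D1:**
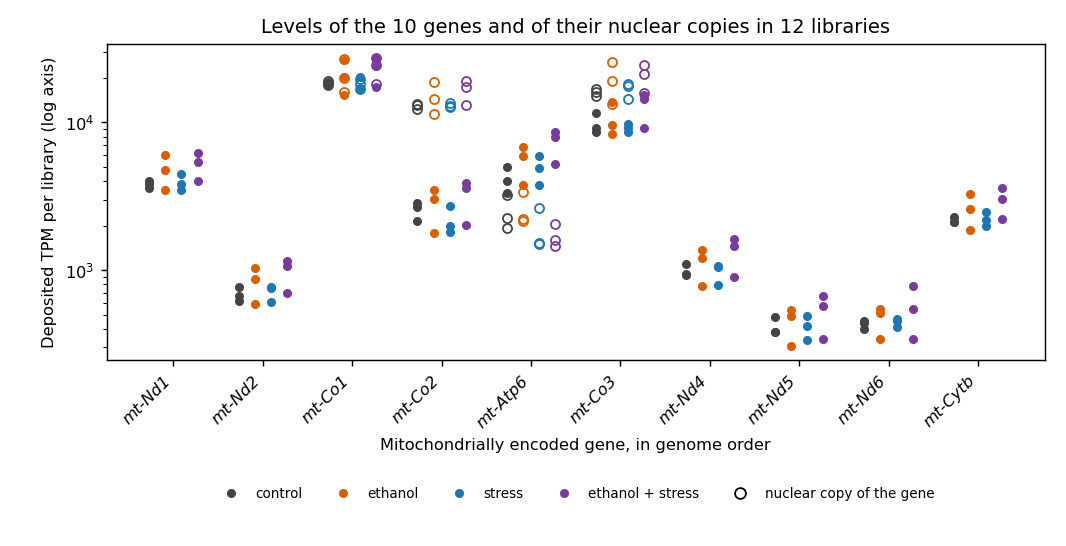
Deposited TPM of each member (filled points) and of its near identical nuclear copy where that is above 0 (open points) in the 12 libraries, on a log axis, with genes in genome order and colours for the 4 groups of 3 mice. Among the members mt-Co1 lies highest and mt-Nd5 and mt-Nd6 lowest in every group, and the copy of mt-Co2 lies above mt-Co2 itself in all 12 libraries.

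The nuclear copies were listed at levels as high as the mitochondrial genes. Gm29216 had a median of 18695 TPM, Gm28437 one of 17210, Gm28661 one of 13216 and Gm10925 one of 2101, while Gm28439, the copy of mt-Nd4, was at 0 in all 12 libraries. kallisto divides reads that fit several transcripts by an estimate, and where 2 sequences have 0 differences the data hold almost nothing by which to divide them. Where the copy matches nearly the whole gene, as for mt-Co2, mt-Co3 and mt-Atp6, the sum of the pair is thus better determined than either value. This does not extend to mt-Co1, which has 1053 bases outside its copy. The copy took 82.1% to 87.6% of the pair for mt-Co2, 56.9% to 67.1% for mt-Co3, 49.1% to 51.8% for mt-Co1 and 16.8% to 49.4% for mt-Atp6. Its part was widest for mt-Atp6 and did not follow the sequence match, which was the same for mt-Co2.

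Summing each pair changed the order of the genes and, in control mice, the spread of some. With the copies added, the medians were 37195 TPM for mt-Co1, 26526 for mt-Co3, 15670 for mt-Co2 and 6812 for mt-Atp6, and mt-Co2 moved from below mt-Nd1 to above mt-Atp6 in 12 of 12 libraries. The sum for mt-Co1 counts its end more than its start, since the copy spans only that end. Among the 3 control mice the coefficient of variation fell from 20.3% to 4.69% for mt-Atp6 and from 14.3% to 2.79% for mt-Co2, and it was 4.29% for the sum of mt-Co3 and its copy. In the other groups the sum lowered the spread of mt-Co2 and mt-Atp6 to unlike extents. That of mt-Co3 rose in stress and ethanol mice. The coefficient of variation of mt-Co2 was 22.3% alone and 6.06% in sum for stress mice. For ethanol it was 31.8% and 25.6%, and for ethanol + stress mice 31.5% and 20.3%. The coefficient of variation of mt-Atp6 was 22.4% alone and 9.12% in sum for stress, 28.5% and 26.1% for ethanol, and 24.4% and 22.5% for ethanol + stress mice. That of mt-Co3 was 6.08% alone and 8.71% in sum for stress and 26.997% and 29.9% for ethanol mice. For mt-Co1 in control mice, where the split was nearly constant, it was 2.12% alone and 2.31% in sum. With the copies added, the complex I genes made up 6.24% to 7.57% of the summed TPM and the complex IV genes 82.4% to 84.4%. Together the 10 genes and their copies held 8.80% to 12.5% of a library.

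**Figure D2:**
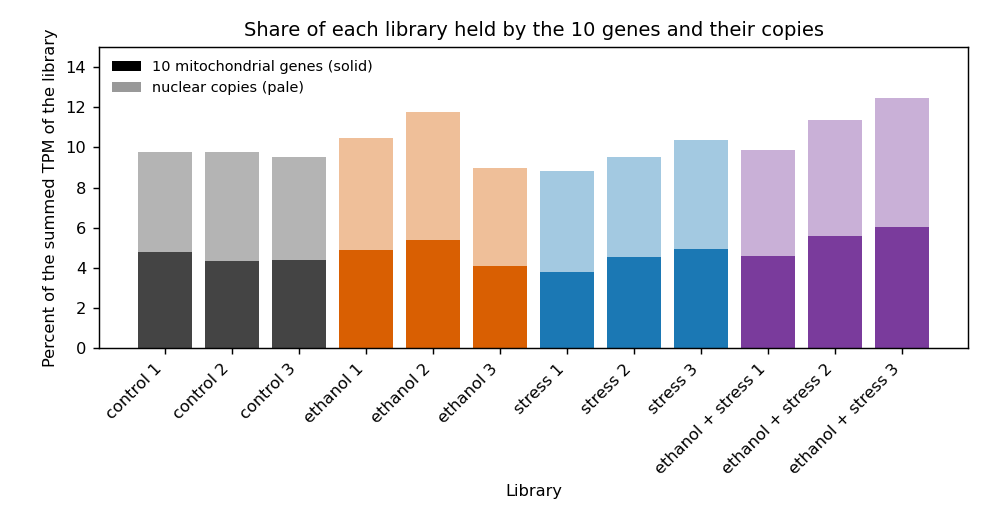
Percent of the summed TPM of each library held by the 10 genes (solid) and by their nuclear copies (pale, stacked), with 1 bar per mouse and colours for the groups. The control bars reach 9.54% to 9.78%, and the tallest bars are ethanol + stress 3 and ethanol 2, at 12.5% and 11.7%.

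As a share of the library, the control values of the members summed to 4.78%, 4.35% and 4.38%. The ethanol values were 4.90%, 5.40% and 4.11%, and the stress values 3.79%, 4.53% and 4.95%. The ethanol + stress values were 4.59%, 5.60% and 6.03%. The means were 4.81% ± 0.650 (SD, n = 3) for ethanol, 4.42% ± 0.592 for stress and 5.40% ± 0.738 for ethanol + stress mice, with an SD of 0.241 among control mice. Each treated group overlapped the control range, and the spread in ethanol, stress and ethanol + stress was wider than in control mice. With the copies added, the means were 9.69% ± 0.136, 10.4% ± 1.40, 9.56% ± 0.787 and 11.2% ± 1.31 for control, ethanol, stress and ethanol + stress mice, where the ethanol + stress values were 9.86%, 11.3% and 12.5% and the control values 9.54% to 9.78%.

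The high values belonged to particular libraries. In TPM, the 3 highest libraries of 10 of the 10 members were ethanol 2, ethanol + stress 2 and ethanol + stress 3, which were also the 3 libraries whose deposited values summed to over 1100000. As shares of the library, these were the 3 highest for 5 of 10 members. The same libraries had the largest share of ribosomal protein transcripts, 7.29%, 6.97% and 6.86% compared with 5.09% to 6.40% in the other 9. They also had the smallest share of transcripts over 3000 bases, 13.9%, 14.5% and 15.1% compared with 17.2% to 21.6%. Gm20594, a nuclear gene on chromosome 6 that shares 42 of its 419 31-base words with the mitochondrial rRNA gene mt-Rnr2, was likewise highest there, at 7.46%, 7.02% and 7.57% of the library compared with at most 6.11% in the other 9. The part of library composition in the level of the members was not tested. Stress 1 had the next highest share of ribosomal protein transcripts, 6.40%, and the lowest share of members, 3.79%, so that these measures did not rank all libraries alike.

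**Figure D3:**
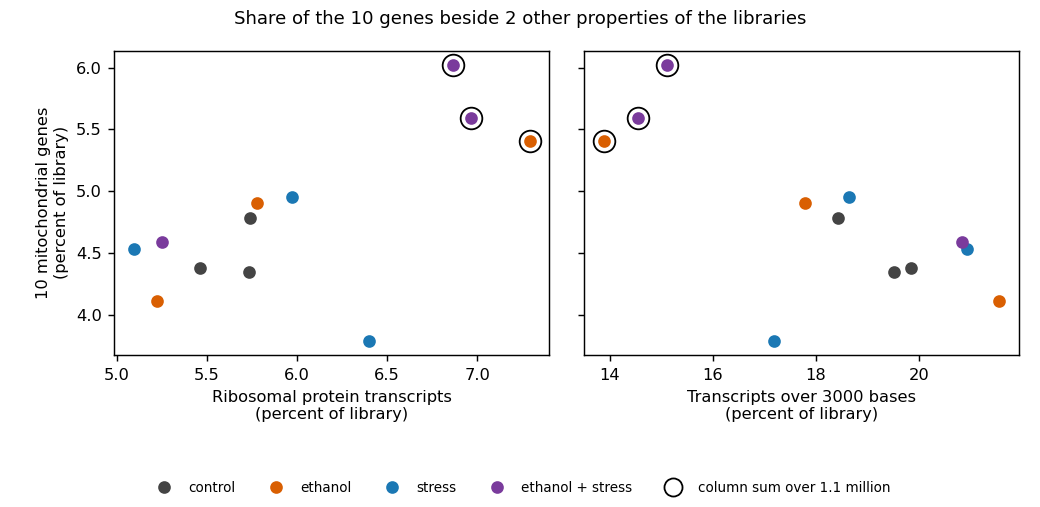
Percent of the library held by the 10 members against the percent held by ribosomal protein transcripts (left) and by transcripts over 3000 bases (right), with 1 point per mouse and rings around the 3 libraries with a sum over 1100000. The ringed libraries have the highest member shares (5.40% to 6.03%), the highest ribosomal protein shares and the lowest shares of long transcripts.

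The first comparison asks what ethanol drinking by the dam left in the adult hippocampus. Transcripts were tested in 1 limma model of log2(TPM + 0.5) over the 4 groups, with a two-sided p under 0.01 as a call and Benjamini-Hochberg adjustment over 59852 transcripts. In ethanol mice 0 of 10 members were called, beside 1.26% of all transcripts, and 0 had an unadjusted p under 0.05. The fitted differences were positive for 10 of 10 members, from 0.06 for mt-Nd5 to 0.40 for mt-Atp6 on the log2 scale. Their median was 0.14, compared with 0.05 over all transcripts. mt-Nd1 was 4731, 6046 and 3476 TPM in the ethanol mice and 4045, 3843 and 3584 TPM in the control mice. For mt-Nd1, as for every member, ethanol 3 lay within or below the control range, and the groups overlapped. Its log2 fold change was 0.28 (SE 0.23, 95% interval -0.24 to 0.79, limma adjusted p = 0.976). mt-Co1 was 20260, 26387 and 15257 TPM in ethanol mice and 18624, 18377 and 17865 TPM in control mice, so that the control values were close together and the ethanol values lay on both sides of them. Without ethanol 2 the median over the members was -0.02, and 6 of 10 members had a negative difference. Without ethanol 3 the median was 0.37 (0.25 to 0.65), with 0 of 10 members called beside 1.42% of all transcripts.

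The median difference of the members from control was smallest after isolation from the dam alone. In stress mice 0 of 10 members were called, beside 0.914% of all transcripts, and 0 had an unadjusted p under 0.05. The fitted differences ran from -0.24 for mt-Co2 to 0.24 for mt-Atp6, with 5 of 10 positive and a median of 0.004, compared with 0.001 over all transcripts. mt-Co2 was 1820, 1997 and 2739 TPM in stress mice and 2853, 2152 and 2691 TPM in control mice. The stress mice were low for mt-Co2 in 2 of 3 libraries, and the groups overlapped through stress 3. Summed with Gm28661, mt-Co2 was 14734, 14681 and 16308 TPM in stress mice and 15897, 15443 and 15034 TPM in control mice, and its log2 difference was -0.02 (SE 0.28). mt-Atp6 with Gm10925 was likewise close to control, at 0.03 (SE 0.24). The intervals of the 10 members reached from -0.92 to 0.88, so that differences within that range are not excluded with 3 mice per group.

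The mean of every member was highest in the mice with both exposures. In ethanol + stress mice 0 of 10 members were called, beside 1.21% of all transcripts, although the differences were positive for 10 of 10 members. They ran from 0.26 for mt-Co2 to 0.80 for mt-Atp6, with a median of 0.38 compared with 0.04 over all transcripts. mt-Atp6 was 5236, 7927 and 8553 TPM in the ethanol + stress mice and 4990, 3326 and 4040 TPM in the control mice. It was the 1 member of 10 whose groups did not overlap, where 5.95% of all transcripts were likewise higher without overlap. Its log2 fold change of 0.80 (SE 0.29, 95% interval 0.16 to 1.45) had an unadjusted limma p of 0.0194 and an adjusted p of 0.875. Summed with Gm10925, the values became 6700, 9528 and 10592 TPM against 6924, 6578 and 6306 TPM, and the groups overlapped on this scale. The overlap was between ethanol + stress 1 and control 1, whose deposited values summed to 921282 and 986541, and it holds for TPM only. The difference of the summed values was 0.41 (SE 0.24, 95% interval -0.13 to 0.95, limma adjusted p = 0.888). The copy took 16.8% to 21.9% of the pair of mt-Atp6 in ethanol + stress mice and 27.9% to 49.4% in control mice. The corresponding ranges of both groups overlapped for the pairs of mt-Co1, mt-Co2 and mt-Co3.

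The other members differed less from control. mt-Co3 was 9215, 15264 and 14337 TPM in ethanol + stress mice and 11524, 9139 and 8595 TPM in control mice. mt-Nd1 was 3984, 5378 and 6250 TPM in ethanol + stress mice, with its lowest value inside the control range. mt-Nd6 was 342, 544 and 777 TPM against 450.4, 398 and 440 TPM in control mice, which placed ethanol + stress 1 below and the other two above every control library. The differences were 0.39 (SE 0.28) for mt-Co3, 0.42 (SE 0.23) for mt-Nd1 and 0.29 (SE 0.26) for mt-Nd6, each with a 95% interval that included 0. On the scale of library shares, mt-Nd1, mt-Cytb and mt-Atp6 were higher without overlap, 3 of 10 members beside 4.10% of all transcripts. Their shares were 0.432% to 0.553% against 0.380% to 0.410% for mt-Nd1, 0.242% to 0.318% against 0.223% to 0.233% for mt-Cytb, and 0.568% to 0.757% against 0.349% to 0.506% for mt-Atp6.

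**Figure D4:**
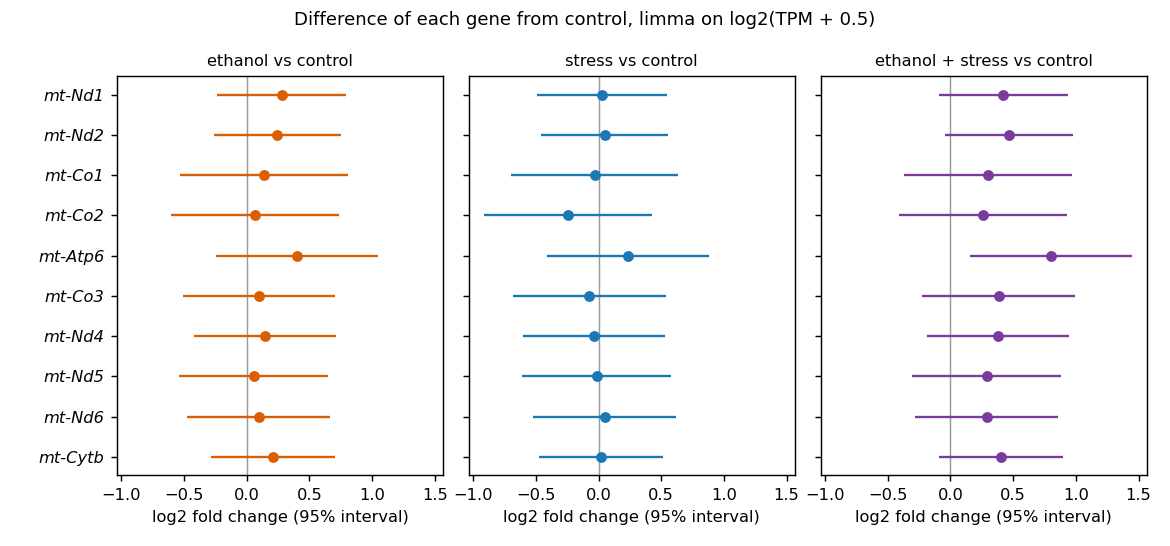
Fitted log2 fold change against control with 95% intervals from limma (n = 3 mice per group) for each member in ethanol, stress and ethanol + stress mice, on the log2(TPM + 0.5) scale and in genome order. All intervals include 0 except that of mt-Atp6 in ethanol + stress mice (0.16 to 1.45), and the ethanol + stress points all lie above 0.

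The positive differences in ethanol + stress mice rested on 2 of 3 libraries. Without ethanol + stress 1, which lay within or below the control range for 9 of 10 members, 2 of 10 members were called beside 2.23% of all transcripts, mt-Atp6 with 1.02 and mt-Nd2, a further membrane subunit of complex I, with 0.69 (limma adjusted p = 0.443 for both), and the median was 0.60. Leaving out the 3 libraries of high sum removes ethanol 2, ethanol + stress 2 and ethanol + stress 3, so that ethanol keeps 2 mice and ethanol + stress keeps ethanol + stress 1 alone (n = 1), which the model assumes to vary like the other groups. The median of that 1 library against control was -0.08, with 6 of 10 members negative. The 3 libraries were the highest for 10 of 10 members. Leaving them out was thus bound to lower the ethanol and ethanol + stress differences of the members, and the ethanol main effect below.

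**Figure D5:**
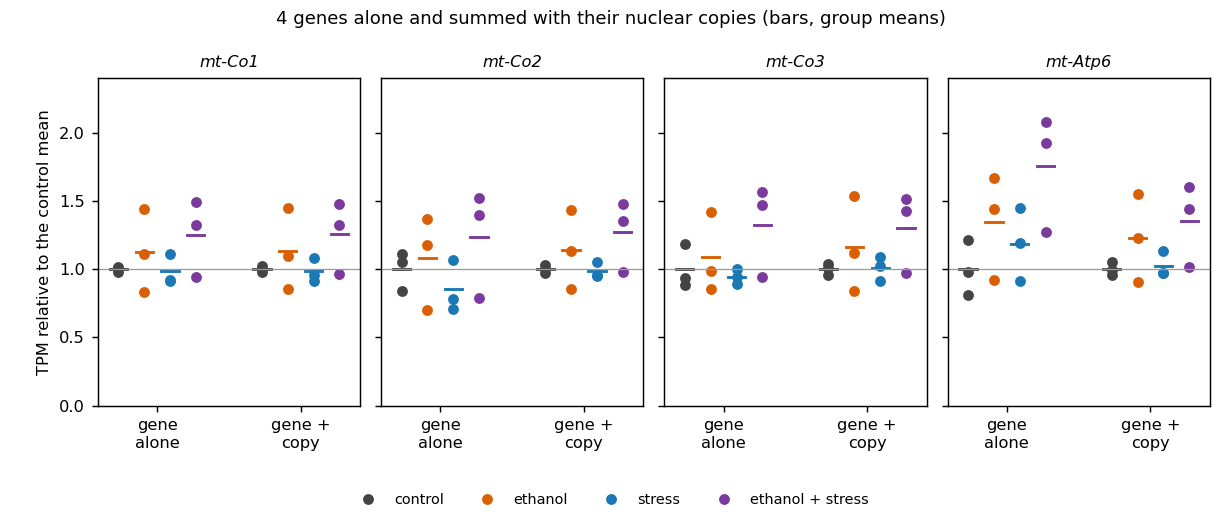
TPM relative to the control mean for mt-Co1, mt-Co2, mt-Co3 and mt-Atp6, each alone and summed with its nuclear copy, with 1 point per mouse and bars for the group means. Adding the copy draws the control points of mt-Co2, mt-Co3 and mt-Atp6 together and lowers the ethanol + stress points of mt-Atp6, of which the lowest then falls within the control range.

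Whether the exposures acted together was asked by the interaction in the same model. For the interaction 0 of 10 members were called, beside 0.854% of all transcripts, with values from 0.12 for mt-Nd1 to 0.44 for mt-Co2 and unadjusted p-values of 0.332 or more (limma). The sign depended on the libraries included, and 6 of 10 members were negative without ethanol 3 (median -0.02), and 7 of 10 without the 3 libraries of high sum (median -0.07), where ethanol + stress 1 alone stands for its group. Pooled over both rearing conditions, ethanol gave 0 calls among 10 members beside 1.47% of all transcripts. The differences in this ethanol main effect were positive for 10 of 10 members, with a median of 0.28, and mt-Atp6 alone had an unadjusted p under 0.05 (0.48, SE 0.21, limma adjusted p = 0.751). With the same 3 libraries left out its median was -0.05 and 6 of 10 were negative, over 2 ethanol mice and 1 ethanol + stress mouse. Pooled over both prenatal conditions, stress gave 0 calls beside 0.934% of all transcripts, with a median of 0.11. Every one of these contrasts uses the same 12 libraries, so they do not replicate each other.

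None of the nuclear partners of these genes passed the test either. Most subunits of the respiratory chain are encoded in the nucleus, and they must be matched to the mitochondrial ones to build each complex. For gene sums, 75 nuclear subunits of complexes I to V were tested, and 0 of 75 were called in ethanol, stress or ethanol + stress mice, beside 0.679%, 0.510% and 0.972% of 18419 genes. Of the 75, 0 had an unadjusted p under 0.05 in ethanol and stress mice, and Atp5g2, a subunit of the ATP synthase rotor ring, had one in ethanol + stress mice (log2 difference 0.68, SE 0.24, limma adjusted p = 0.791). The median difference of the 75 was 0.12 after ethanol, 0.04 after stress and 0.21 after both, compared with all-gene medians of 0.02, 0.004 and 0.02. Without the 3 libraries of high sum these medians were -0.05 for the remaining 2 ethanol mice and -0.16 for ethanol + stress 1 alone. Per length, the nuclear subunits, taken as sums over the transcripts of a gene, were lower than most members. The highest by its median in complex IV was Cox8a with 2172 TPM, and in complex V Atp5b, a catalytic subunit, with 1689 TPM. With each gene taken by its mean over the libraries, the medians over the nuclear genes of complex I and complex IV were 271 and 985 TPM.

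The genes that copy, cut and stabilise mitochondrial RNA gave 1 call. Of 31 such genes, among them Polrmt, the mitochondrial RNA polymerase, with a median of 16.2 TPM, and Tfam, which packages and activates the genome, with 41.2 TPM, 0 were called in ethanol, stress or ethanol + stress mice against control. In the ethanol main effect 1 of 31 was called lower, beside 0.299% of genes, namely 1110008L16Rik, the nuclease subunit of mitochondrial RNase P (log2 difference -0.39, SE 0.10, limma adjusted p = 0.759). In this effect 0 of 31 were called without the 3 libraries of high sum, with 2 ethanol mice and 1 ethanol + stress mouse left. The median differences of the 31 were 0.07 after ethanol, 0.002 after stress and 0.08 after both, and without those 3 libraries -0.006 for 2 ethanol mice and -0.07 for ethanol + stress 1 alone. Of 7 regulators of mitochondrial biogenesis, 0 were called, and Esrra, a nuclear receptor for oxidative genes, had differences of 0.29 in both ethanol (SE 0.13, limma adjusted p = 0.996) and ethanol + stress mice (limma adjusted p = 0.791). The median differences of the 7 were 0.12 after ethanol, -0.02 after stress and 0.13 after both. Without the 3 libraries of high sum they were 0.12 for 2 ethanol mice and 0.16 for ethanol + stress 1 alone. The 3 mitochondrial mRNAs outside the set had median differences of 0.16 after ethanol, 0.04 after stress and 0.33 after both, with 0 called, and without the 3 libraries of high sum -0.04 for 2 ethanol mice and -0.09 for ethanol + stress 1 alone.

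Markers of blood and choroid plexus differed in level between libraries. Fewer cells of a type and less RNA per cell cannot be told apart in such bulk samples. Of 5 blood markers, 4 globin genes and Alas2 of heme synthesis, 5 were called higher in ethanol and in ethanol + stress mice, beside 0.516% and 0.695% of genes, and 0 in stress mice (medians 1.24, 1.08 and 0.70). Their summed level was 1603 to 2022 TPM for control, 3146 to 6815 for ethanol, 2593 to 3392 for stress and 2454 to 6480 for ethanol + stress mice, and 0 of 5 markers were at 0 in any library. Without the 3 libraries of high sum, the blood markers called higher were 5 of 5 for ethanol (n = 2), 5 of 5 for stress (n = 3) and 1 of 5 for ethanol + stress 1 alone (n = 1), beside 0.575%, 0.385% and 0.369% of genes. Ethanol 2, ethanol + stress 2 and ethanol + stress 3, the 3 libraries highest in the members, were also the 3 highest for these markers, at 6815, 6480 and 3977 TPM. The part of blood in the level of the members was not tested. The 9 choroid plexus markers summed to 626 to 1858 TPM for control, 43.4 to 3551 for ethanol, 1663 to 5305 for stress and 212 to 7284 for ethanol + stress mice, with 0 of 9 called and 0 of 9 at 0 in any library. Ethanol 2, with 87.4 TPM of choroid plexus markers, and ethanol + stress 2, with 7284 TPM, were both high in the members. Other cell types gave single calls in the combined contrasts. Of 8 hippocampal neuron markers, C1ql2, a marker of dentate granule cells, was called lower in the ethanol main effect (log2 difference -0.30, SE 0.09, limma adjusted p = 0.759), beside 0.299% of genes. Of 5 microglial markers, Tmem119 was called higher in the interaction (0.54, SE 0.16, limma adjusted p = 0.999975), beside 0.190% of genes. The median of the 5 in the interaction was 0.29. It was 0.14 without the 3 libraries of high sum, where ethanol + stress 1 alone stands for its group. The part of these cell types in the level of the members was not tested.

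Nuclear genes that followed the members most closely were found by Pearson's r over the 12 libraries between the log2 level of a gene and the log2 sum of the members, among 10362 genes at 5 TPM or more in every library. Of the first 5, Gm29216 (r = 0.972) and Gm28661 (0.967) were nuclear copies and share their reads with the members. Ccni, a cyclin-like protein, followed with 0.962 at 132 to 179 TPM. Wdfy1, an endosomal adaptor, and Kansl1l both had 0.957. The points share the scaling of their library, and the values describe likeness over these 12 libraries only.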

How the data were processed

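The deposited values are a signal for each transcript and library. Per the labels and the study's methods, the authors placed read pairs on Ensembl transcripts of GRCm38 (mm10) with kallisto and scaled the TPM between libraries, and the submitters' processing notes also name CASAVA and sleuth. Versions and the strand setting are not given in the sources used here. Transcripts were matched by identifier to GENCODE vM21 (113492 of 115270, and 10 of 10 members), the source of all sequences. Testing kept transcripts that reached 0.1 TPM in 6 or more of the 12 libraries (59852, and 18419 gene sums). It used log2(TPM + 0.5), which shrinks the changes of low transcripts, and limma 3.58.1 (lmFit, eBayes with trend) in R 4.3.3. One model held the 4 labelled groups, without a replicate block. Calls are at an unadjusted two-sided p under 0.01, the study's threshold, and adjustment was by Benjamini-Hochberg over all tested features. The model was tested on simulated data. Tables and plots used Python 3.11.15, pandas 2.3.3, numpy 2.4.6 and matplotlib 3.10.9. Named were the 10 members, up to 3 called genes of smallest p per other list, and the 5 genes most like the members. Atp5g2, Esrra, Polrmt, Tfam, Cox8a and Atp5b were named after their values were seen. The members, lists and tests were chosen with earlier results of these data known. Alternatives were other pseudocounts, filters, scalings and fits, sums with nuclear copies, a replicate block and leaving out each library. Chosen after seeing the data were removal of the trend over transcript length and leaving out the 3 libraries of high sum.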

Additional observations from a re-analysis of the deposited data

How the results depend on the processing

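All fits are of limma, and the 10 members had no call under any alternative but 1. Leaving out 1 library at a time gave 0 to 2 members called for ethanol + stress mice, where the 2 came without ethanol + stress 1 (beside 2.23% of all transcripts), and 0 for the other comparisons. The medians of the members then ranged from -0.024 to 0.369 for ethanol, from -0.066 to 0.103 for stress, from 0.228 to 0.600 for ethanol + stress, from -0.023 to 0.424 for the interaction, from 0.192 to 0.402 for the ethanol main effect and from -0.005 to 0.225 for the stress main effect. Without the 3 libraries of high sum, 2 ethanol mice and 1 ethanol + stress mouse remained, the latter assumed to vary like the other groups, so that its values are those of 1 library. The medians were then -0.0754 for ethanol + stress and -0.0533 for the ethanol main effect, and the sign changed for 7 of 10 members in the interaction, 6 in the ethanol and 5 in the stress main effect. The mean share of the library ranged from 4.36% to 4.58% for control, 4.51% to 5.15% for ethanol, 4.16% to 4.74% for stress and 5.09% to 5.81% for ethanol + stress mice without 1 library, and was 9.69%, 10.4%, 9.56% and 11.2% with the nuclear copies. With the trend over length removed, 1 of 31 genes for mitochondrial RNA was called lower in ethanol + stress mice (beside 0.611% of genes), 1 of 8 neuronal and 1 of 5 oligodendrocyte markers lower in ethanol mice against control (beside 0.600%), and 1 of 5 blood markers higher in stress mice (beside 0.257%), and, in the main effects, 1 of 5 oligodendrocyte markers lower for ethanol and 1 of 8 neuronal markers higher for stress (beside 0.953% and 0.380%). Without the 3 libraries, ethanol + stress 1 alone stood for its group. The median of the 5 blood markers was then -1.15 in the interaction, compared with -0.84 over all libraries. In the ethanol main effect it was 0.35, compared with 0.82. The median of the 5 striatal markers was -0.47 in the interaction and 0.11 in the stress main effect, compared with -0.11 and 0.18.

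Differences that did not pass the test changed sign as follows, with values given for the comparisons against control. In the interaction, leaving out ethanol 3 changed the sign of 6 of 10 members, ethanol + stress 3 of 2 and stress 1 of 1. In the stress main effect, leaving out 1 library changed at most 4 (ethanol 3), and summing with the copies changed 1. In ethanol mice, a common total gave -0.0255 for mt-Nd5 and -0.0159 for mt-Co2, and a common total of nuclear transcripts -0.0182 for mt-Nd5 and -0.00863 for mt-Co2. Removal of the trend over length gave -0.0207 for mt-Nd5, -0.0491 for mt-Nd6, -0.0681 for mt-Co2 and -0.0285 for mt-Co3. Without the 3 libraries of high sum, ethanol differences were -0.0186 for mt-Nd4, -0.0989 for mt-Nd5, -0.0300 for mt-Nd6, -0.0566 for mt-Co1, -0.132 for mt-Co2 and -0.109 for mt-Co3, and the differences of ethanol + stress 1 alone from control were -0.144 for mt-Nd4, -0.284 for mt-Nd5, -0.325 for mt-Nd6, -0.0808 for mt-Co1, -0.327 for mt-Co2 and -0.0700 for mt-Co3. In stress mice mt-Co3 with its copy was 0.0118. Leaving out 1 library moved ethanol differences from -0.0566 to 0.339 for mt-Co1, -0.132 to 0.351 for mt-Co2, -0.109 to 0.254 for mt-Co3, -0.0186 to 0.386 for mt-Nd4, -0.0989 to 0.301 for mt-Nd5 and -0.0300 to 0.308 for mt-Nd6, and stress differences from -0.121 to 0.0177 for mt-Co1, -0.158 to 0.0536 for mt-Co3, -0.0616 to 0.0952 for mt-Cytb, -0.0703 to 0.110 for mt-Nd1, -0.0235 to 0.157 for mt-Nd2, -0.113 to 0.105 for mt-Nd4, -0.141 to 0.125 for mt-Nd5 and -0.00279 to 0.1005 for mt-Nd6. The cause of these changes was not tested.

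Deviations from the group means correlated by -0.061 to 0.075 between equal replicate numbers and by -0.133 to 0.134 between unequal ones. Such correlations cannot show whether mice of equal number share a litter or a batch. A fit with the replicate block called 0 members in each comparison. Differences within the intervals given are not excluded with 3 mice per group.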
